A study of Homo sapiens with 32 samples.

Results

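The genes described here are 10 that mark or drive the mesenchymal state of neuroblastoma and the epithelial-mesenchymal transition (EMT): the Snail factors SNAI1 and SNAI2, the Twist factors TWIST1 and TWIST2, ZEB1 and ZEB2, the transcription factors PRRX1, RUNX1 and ETS1, and the intermediate filament gene VIM. They were taken by symbol, and all 10 were found among the 58317 genes of the authors' deposited table. All 10 also had a value in each of its 7 comparisons and stood in the separate table of 9368 genes to which the authors gave a MYC binding site. RNA was sequenced from TET21 cells (SH-EP/TET21/N), human neuroblastoma cells made from the SH-EP line by adding a MYCN transgene that doxycycline turns off. The labels' protocol has cells that express full-length MYC kept in doxycycline (1 µg/mL) during the last 7 days of culture. The same text stands with all 32 libraries, EV and mutants included. The 32 libraries were 4 with an empty vector (EV), 4 with full-length MYC (WT), and 4 with each of 6 MYC deletion mutants. The labels name these mutants only as d0x (ΔMB0 here), d1 (ΔMBI), d2 (ΔMBII), d3a (ΔMBIIIa), d3b (ΔMBIIIb) and d4 (ΔMBIV), and the deleted parts were inferred from those names to be the conserved MYC boxes. All groups share 1 cell line, and the labels give no amount of MYC protein.

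What the files hold are comparisons the authors made, of WT with EV and of every mutant with WT. A gene has for each a log2 fold and a PPDE, the posterior probability that it is differentially expressed, for which the authors set a threshold of 0.95, equal to a false discovery rate of 0.05 per the file headers. A gene is said to have risen or fallen only where it passed that threshold. Values per library were not used here, so no fold has an SD, the depth of the libraries is unknown, and expression levels cannot be ranked between genes. The labels do not say whether the 4 libraries of a group are separate cultures, and the probabilities may measure technical spread only. Titles number the libraries of every group as replicates 4 to 7. Whether equal numbers mark matched sets, and whether the authors' comparisons paired them, is not stated in the sources used here. For the expressed gene itself, MYC in WT against EV had a log2 fold of 0.98 and a PPDE of only 0.348 by the authors' deposited table, below the threshold.

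EMT is a change in which epithelial cells lose cell-cell junctions and gain motility, and in development it releases neural crest cells, from which neuroblastoma arises. Snail and ZEB proteins are zinc-finger repressors that bind E-boxes of the sequence CAGGTG and silence genes such as that of E-cadherin, CDH1. Twist proteins are basic helix-loop-helix factors that bind DNA with an E-protein partner. Neuroblastoma cells occur in an adrenergic state, close to that of sympathetic neurons, and in a mesenchymal state, in which PRRX1 and AP-1 factors are known to be active and vimentin is abundant. SH-EP is known as a line of the mesenchymal kind. MYC activates genes through E-boxes of the sequence CACGTG and lowers others.

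Because all 10 genes carried a MYC binding site in the authors' assignment, their start sites were searched for both kinds of E-box. The RefSeq promoter sequences (build GRCh38.p14, 250 bases before to 50 after a start) held 12 entries for 6 of the genes, PRRX1, TWIST2, ZEB1, ZEB2, VIM and RUNX1, and none for SNAI1, SNAI2, TWIST1 and ETS1. CACGTG, which reads the same on both strands, was in none of the 6 genes' windows, against 7.26% of all 35116 windows of that length. CAGGTG or its reverse complement CACCTG was in 20.6% of all windows and, among these genes, in ZEB1 only, in 2 of its 7 entries. Shown are ZEB2, the only called gene with an entry, and the ZEB1 entry with 3 matches, both on the coding strand with CAGGTG and CACCTG in capitals. A missing match says only that the letters are not in the window, and the authors' table does not say where a binding site lies.
ZEB2, chr2:144520070-144520369, minus strand: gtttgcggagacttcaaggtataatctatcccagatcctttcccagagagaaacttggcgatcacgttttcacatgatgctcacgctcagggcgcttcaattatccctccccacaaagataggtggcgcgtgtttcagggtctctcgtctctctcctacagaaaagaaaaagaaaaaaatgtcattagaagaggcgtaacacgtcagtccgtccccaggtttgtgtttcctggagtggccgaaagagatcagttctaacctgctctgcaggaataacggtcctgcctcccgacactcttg
ZEB1, chr10:31318966-31319265, plus strand: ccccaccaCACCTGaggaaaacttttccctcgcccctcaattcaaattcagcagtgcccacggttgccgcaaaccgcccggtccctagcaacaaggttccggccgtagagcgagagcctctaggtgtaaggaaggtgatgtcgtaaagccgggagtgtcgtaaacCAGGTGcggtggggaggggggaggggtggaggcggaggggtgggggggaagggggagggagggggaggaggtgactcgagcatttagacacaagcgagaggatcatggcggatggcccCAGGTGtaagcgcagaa

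WT against EV sets the libraries with full-length MYC beside those with the empty vector. Whether doxycycline turned MYCN off alike in both groups was not tested. SNAI2, ETS1 and ZEB2 fell, none of the 10 rose, and the other 7 were not called. Of all 38218 genes tested in this comparison the authors' table called 4.91% in either direction and 2.94% as fallen. Among the 9165 tested genes with a MYC binding site, which all 10 have, the same calls covered 11.6% and 6.06%. The median log2 fold of the 10 genes was -0.43, beside -0.04 over all tested genes. A log2 fold below 0 was found in 8 of the 10, and in 54.3% of tested genes with a binding site.

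Of the Snail genes 1 was called. SNAI2, also called Slug, which represses E-cadherin and marks migrating neural crest, fell by 1.35 on the log2 scale in the authors' deposited table (PPDE 1.0). That is a level 2.55-fold lower in WT than in EV, and 1.96% of tested genes with a binding site had a log2 fold as low or lower. SNAI1, the other Snail repressor, had a PPDE of 0.0324 and stood at -0.28 on the log2 scale in the authors' deposited table. The difference between the folds of SNAI1 and SNAI2 was not tested.

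Of the Twist genes neither was called, and their folds had opposite signs. TWIST2 had the highest log2 fold of the 10 in the authors' deposited table, 0.60 with a PPDE of 0.385. Its relative TWIST1 stood at -0.22 with a PPDE of 0.389 in the same authors' deposited table. The PPDE of these genes was therefore nearly equal at folds of very different size.

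The ZEB genes, which repress epithelial genes and are themselves held down by the miR-200 family, stood close together. ZEB2 fell by 0.50 on the log2 scale in the authors' deposited table, with a PPDE of 0.951 that lies just inside the threshold. ZEB1 had a lower log2 fold, -0.58, but a PPDE of 0.443 in the authors' deposited table, short of a call. At a threshold of 0.99 the call of ZEB2 ended, which left SNAI2 and ETS1.

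ETS1, the founding member of the ETS family and a factor of migrating neural crest and of matrix protease genes, fell by 0.71 on the log2 scale in the authors' deposited table (PPDE 1.0), a level 1.64-fold lower. RUNX1, a Runt-domain factor that works with CBFB, stood at -0.36 with a PPDE of 0.195 in the authors' deposited table. PRRX1, a homeobox factor able to drive adrenergic neuroblastoma cells towards the mesenchymal state, had a log2 fold of 0.05 and a PPDE of 0.00211 in the authors' deposited table, the smallest fold of the 10. VIM, whose product vimentin forms the intermediate filaments of mesenchymal cells, stood at -0.58 with a PPDE of 0.163 in the authors' deposited table. VIM thus had a larger fold than ZEB2 without a call. Among tested genes with a binding site and an absolute log2 fold from 0.5 to below 0.75, the authors' deposited table called 344 of 1069, or 32.2%, so that VIM, ZEB1 and TWIST2 are in this respect like most genes of their fold.

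**Figure D1:**
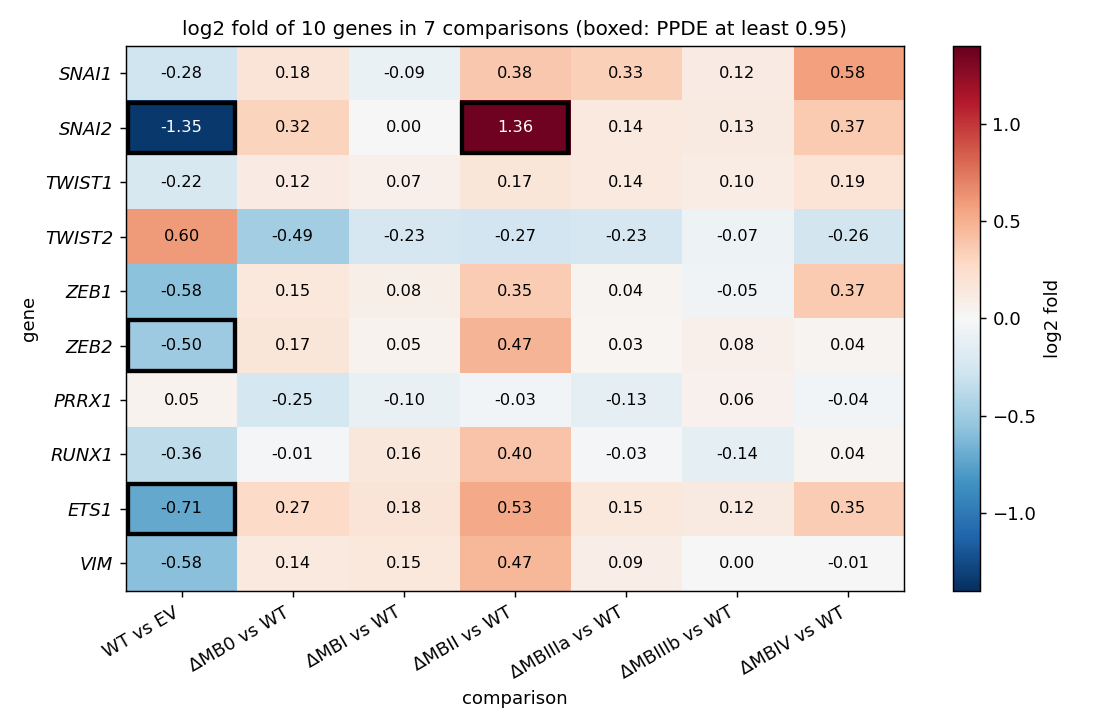
Log2 folds from the authors' deposited table for the 10 genes (rows) in the 7 comparisons (columns), blue for lower and red for higher in the first-named group, with a black box where the PPDE was at least 0.95. The 4 boxes are SNAI2, ETS1 and ZEB2 in WT against EV and SNAI2 in ΔMBII against WT, at 1.36.

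Each mutant was compared with WT to ask what the deletion changes. The 7 comparisons share the WT libraries, so that a sign opposite to that in WT against EV is partly built in, and values are set side by side only. Across the 60 values of mutants against WT the authors' deposited table made 1 call among these genes, for SNAI2 in ΔMBII.

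In ΔMBII, which by its name lacks the box known to bind the cofactor TRRAP, SNAI2 rose, with a log2 fold of 1.36 and a PPDE of 0.99954 in the authors' deposited table. Its level was 2.56-fold higher than in WT. The authors' table called 1.45% of 38113 tested genes in this comparison, 0.695% as risen, and 1.51% as risen among those with a binding site. A share of 0.94% of genes with a binding site had a log2 fold as high as that of SNAI2 or higher. No other member passed, and the next highest PPDE was 0.0194, that of RUNX1 whose log2 fold was 0.40 by the authors' deposited table. ETS1 and ZEB2 stood at 0.53 and 0.47 in the authors' deposited table, without a call. VIM stood at 0.47, SNAI1 at 0.38, ZEB1 at 0.35 and TWIST1 at 0.17 in the authors' deposited table. Below 0 were PRRX1 at -0.03 and TWIST2 at -0.27 in the authors' deposited table. The 10 genes had a median log2 fold of 0.39 here, beside 0.04 over all tested genes.

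In ΔMBIV none of the 10 was called, where the authors' table called 1.11% of all 37812 tested genes. SNAI1 had the highest log2 fold, 0.58, with a PPDE of 0.0149 in the authors' deposited table. SNAI2 and ZEB1 followed at 0.37 each and ETS1 at 0.35 in the authors' deposited table. VIM, at -0.01, ZEB2, at 0.04, and RUNX1, at 0.04, stood near 0 in the authors' deposited table, although ZEB2 was among the genes that fell in WT against EV. Whether ZEB1 and ZEB2 differ in ΔMBIV was not tested.

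In ΔMB0, where 0.559% of all tested genes were called, none of the 10 passed either. TWIST2 was lowest at -0.49 on the log2 scale and SNAI2 highest at 0.32 in the authors' deposited table, with PPDE values of 0.0202 and 0.018. PRRX1 reached its largest absolute fold of the 7 comparisons here, -0.25 with a PPDE of 0.00121 in the authors' deposited table. In ΔMBI, ΔMBIIIa and ΔMBIIIb no member was called, against 0.119%, 0.0419% and 0.0955% of all tested genes. With so few calls in those 3 comparisons, and also in ΔMB0 and ΔMBIV, 0 of 10 says little about these genes. The folds in the authors' deposited table ran from -0.23 (TWIST2) to 0.18 (ETS1) in ΔMBI. They ran from -0.23 (TWIST2) to 0.33 (SNAI1) in ΔMBIIIa and from -0.14 (RUNX1) to 0.13 (SNAI2) in ΔMBIIIb, again in the authors' deposited table. SNAI2, the lowest of the 10 in WT against EV, stood at 0.00 in ΔMBI and 0.14 in ΔMBIIIa in the authors' deposited table.

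A place relative to EV can be had by adding a mutant's log2 fold to that of WT against EV, as a description with no test, since mutants were not compared with EV in the files analysed here. For SNAI2 the sum was 0.01 in ΔMBII, -0.98 in ΔMBIV, -1.03 in ΔMB0, -1.21 in ΔMBIIIa, -1.22 in ΔMBIIIb and -1.35 in ΔMBI. The sum for ETS1 was -0.18 in ΔMBII, -0.36 in ΔMBIV and -0.45 in ΔMB0. ZEB2 came to -0.03 in ΔMBII, -0.33 in ΔMB0 and -0.47 in ΔMBIV. Over the 10 genes the sums in ΔMBII ran from -0.23 (ZEB1) to 0.33 (TWIST2), with a median of -0.01, whereas the medians of the other 5 mutants lay between -0.46 and -0.26. By this arithmetic the median of the 10 genes lay nearest to EV in ΔMBII. The same sums over all tested genes were not computed, so this may not be particular to these genes. Of the mutants ΔMBII also had the largest share of all tested genes called against WT, 1.45%. MYC RNA against WT stood at 0.68 in ΔMBII, 0.67 in ΔMBIIIa, 0.57 in ΔMB0, 0.57 in ΔMBIV, 0.46 in ΔMBI and -0.09 in ΔMBIIIb on the log2 scale by the authors' deposited table, with no call. Its part in the order of mutants was not tested, and amounts of MYC protein were not available.

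The authors also fitted the genes with a MYC binding site on their own. The log2 folds of the 10 genes differed between the 2 fits by at most 0.11, but many PPDE values did not match. In WT against EV the separate fit called ZEB1 as well, at -0.56 with a PPDE of 0.959 in the authors' deposited table of bound genes, and kept SNAI2, ETS1 and ZEB2. It called 15.8% of its 9181 tested genes in that comparison. In ΔMBIV it called ETS1, risen at 0.43 with a PPDE of 0.992 in the authors' deposited table of bound genes, where its share of called genes was 2.64%. Several members moved from a PPDE near 0 to an intermediate one without passing. RUNX1 in ΔMBII went from 0.0194 to 0.815 and SNAI2 in ΔMB0 from 0.018 to 0.754 between the authors' deposited tables. VIM in WT against EV went from 0.163 to 0.722, and TWIST1 from 0.389 to 0.812, between the authors' deposited tables. The PPDE was higher in the separate fit for all 10 genes in ΔMB0 and in ΔMBII. It was higher for 9 in each of ΔMBI, ΔMBIIIa and ΔMBIV, 8 in WT against EV and 5 in ΔMBIIIb. The reason was not tested.

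**Figure D2:**
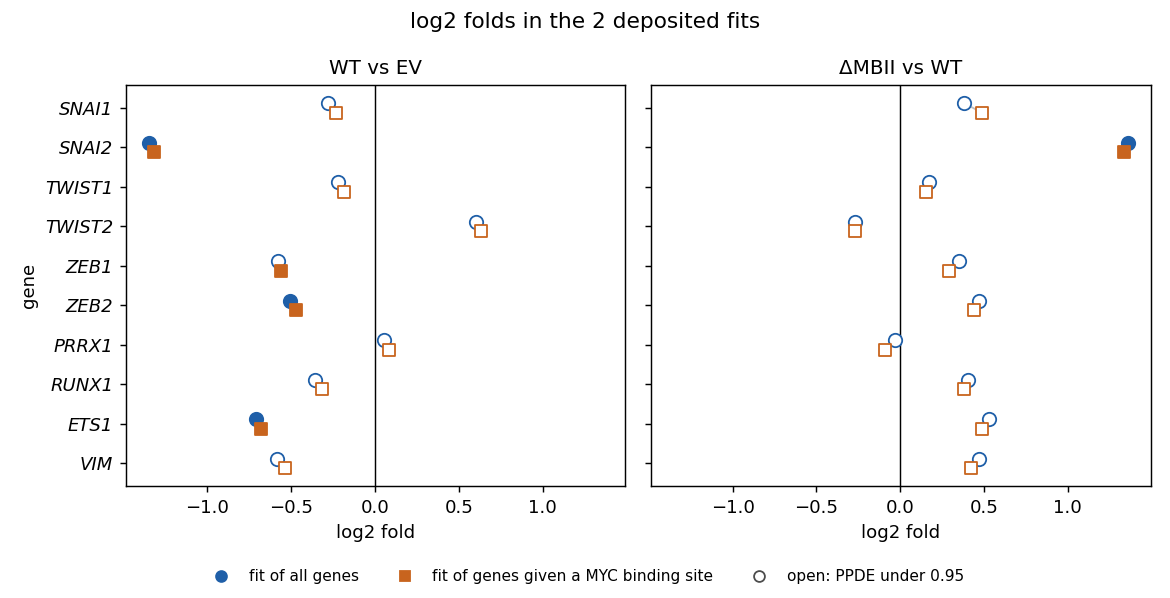
Log2 folds of the 10 genes in WT against EV (left) and ΔMBII against WT (right) from the fit of all genes (blue circles) and the separate fit of genes given a MYC binding site (orange squares), filled where the PPDE was at least 0.95. ZEB1 at -0.58 and -0.56 is filled in the separate fit only, and SNAI2 is filled in both fits of both comparisons.

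The reads of a gene that overlaps another on the opposite strand cannot be told apart here, since no source used states whether counting used strand. By GENCODE 29 annotation, ZEB1 and VIM each overlap 1 antisense gene with values in the table, and ZEB2 overlaps ZEB2-AS1 and AC009951.2. In WT against EV the authors' deposited table had ZEB1-AS1 at 0.05, ZEB2-AS1 at 0.07, AC009951.2 at -1.21 and VIM-AS1 at -0.24, none of them called. AC009951.2 and VIM-AS1 thus had the sign of the gene they overlap in that comparison. In ΔMBII AC009951.2 at -1.19 had the sign opposite to ZEB2 at 0.47. There ZEB1-AS1 at 0.30, ZEB2-AS1 at 0.24 and VIM-AS1 at 0.19 had the sign of the overlapped gene, again without a call. The PPDE of these antisense genes was at most 0.0879 in both comparisons by the authors' deposited table, so their signs say little. The part of antisense reads in the members' folds was not tested.

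The genes around the regulators were read from 8 lists, by counts and medians alone, from the fit of all genes unless the separate fit is named. Mesenchymal effectors, the genes that carry out the state, had the most calls: 15 of 27 fell in WT against EV and none rose, with a median log2 fold of -1.23. That is 55.6% of the list, beside 2.94% of all tested genes called as fallen. Fibronectin, FN1, stood at -2.51, the cadherin CDH11 at -1.81 and the actin-binding TAGLN at -1.56 in the authors' deposited table. CDH2, the N-cadherin gained in EMT, named after its values were seen, fell by 0.78 on the log2 scale by the authors' deposited table. The separate fit holds 19 effectors, of which 9 fell, beside 15.8% of all its tested genes called in either direction. In ΔMBII 4 of 27 rose, FN1 at 1.77, SPARC at 1.13, THBS1 at 1.03 and COL3A1 at 0.94 in the authors' deposited table. That is 14.8%, beside 0.695% of all tested genes called as risen there. The separate fit called 3 of its 19 effectors as risen in ΔMBII, namely CDH2, CDH11 and COL3A1. The share of all its genes that this fit called in ΔMBII was not computed. In ΔMBIV 4 of 27 rose, ACTA2 at 1.00, TNC at 0.94, COL3A1 at 0.75 and SPARC at 0.70 in the authors' deposited table. That is 14.8%, beside 1.11% of all tested genes called in either direction there. The ΔMBIV count was 2 in the separate fit, 2 where the PPDE had to reach 0.99 and 1 with an absolute log2 fold of at least 1. The separate fit called 2.64% of its tested genes in ΔMBIV in either direction. In ΔMB0 1 of 27 effectors rose, or 3.7%, beside 0.559% of all tested genes called in either direction.

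Among signals that induce EMT, 6 of 23 fell in WT against EV and none rose. That is 26.1%, beside 2.94% of all tested genes called as fallen. JAG1, a Notch ligand, stood at -1.94, the ligand TGFB2 at -1.58, WNT5A at -1.30 and the receptor TGFBR2 at -1.02 in the authors' deposited table. None of the 23 was called in any mutant. Of 26 other genes linked to mesenchymal neuroblastoma, mostly transcription factors, 2 fell and 1 rose in WT against EV. These calls cover 11.5% of the list, beside 4.91% of all tested genes and 11.6% of those with a binding site. The separate fit called 2 of its 21 genes of this list as risen and 3 as fallen, beside 15.8% of all its tested genes. In the fit of all genes the fallen were the AP-1 factor FOSL2 at -0.50 and the receptor NOTCH2 at -0.51 in the authors' deposited table. ID1, a partner-sequestering inhibitor of E proteins, fell in ΔMB0, at -0.28 in the authors' deposited table, as the only call of that list in the mutants.

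Among markers of other states and cell types, the called share in WT against EV differed by list. It was 4.76% of epithelial and 20.0% of adrenergic genes, beside 4.91% of all tested genes and 11.6% of those with a binding site. Of 21 measured epithelial genes that EMT repressors are known to target, CDH1 alone was called in WT against EV, and it fell by 3.59 on the log2 scale in the authors' deposited table, in the comparison in which SNAI2 and ZEB2 fell. The PPDE of CDH1 was 0.964 in the authors' deposited table, so that this call ended at a threshold of 0.99. In the mutants CDH1 ran from -0.65 to 0.87 with a PPDE of at most 0.0181 in the authors' deposited table. Whether its large fold rests on few reads was not tested, since read counts were not available here. The epithelial list had a median of -0.47, with 5 of its 21 genes above 0, and no call in any mutant. Of 20 measured adrenergic genes, HAND2 at 0.48 and SOX11 at 0.68 rose, and KLF7 at -0.56 and the chromogranin CHGB at -1.65 fell in the authors' deposited table. None of the adrenergic genes was called in a mutant. None of the immune cell genes, of which 10 to 12 had values, was called in any comparison. These lists were chosen with earlier results of these data known, and their part in the members' folds was not tested.

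Partners and relatives of the regulators had 1 call per list in WT against EV, or 4.35% and 4.55%. Beside these stand 4.91% of all tested genes and 11.6% of those with a binding site. Such a site was given to 18 of the 23 partners and 12 of the 23 relatives. Of 23 partners and corepressors KDM1A alone was called, the histone demethylase LSD1 that Snail proteins recruit. It rose in WT against EV, at 0.45, and fell in ΔMB0 and ΔMBIV, at -0.21 and -0.32, as the authors' deposited table gives them. In the separate fit no partner gene was called in ΔMB0 or ΔMBIV, and KDM1A fell in ΔMBII. That fit called 2 of its 18 partner genes as risen in WT against EV, beside 15.8% of all its tested genes called in either direction. Among close relatives of the members the ETS factor FLI1 fell in WT against EV, at -0.73 in the authors' deposited table, which stands beside -0.71 for ETS1. Nestin, NES, an intermediate filament gene like VIM, fell in ΔMBI at -0.86, and the muscle filament gene DES rose in ΔMBIV at 1.53, in the authors' deposited table. The separate fit also called list genes against WT that the fit of all genes had not, named here after their values were seen: CDH2, CDH11, EGFR, KDM1A, KLF7, TGFB2 and ZNF217 in ΔMBII, EGFR in ΔMBIV, CDH11 in ΔMB0 and DSP in ΔMBIIIb.

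Genes with the most similar folds were sought for the 3 called regulators, by the Euclidean distance over the 7 log2 folds among 2051 other genes called at least once. Nearest to SNAI2 were C1S, a complement protease, at a distance of 0.368, SSPN at 0.38 and the collagen-modifying enzyme PLOD2 at 0.383. C1S fell in WT against EV at -1.62 and rose in ΔMBII at 1.39 in the authors' deposited table, beside -1.35 and 1.36 for SNAI2. PLOD2 and SSPN stood at 1.06 and 1.16 in ΔMBII in the authors' deposited table and were not called there. ETS1 lay nearest to the neurotrophin BDNF (0.145), FRMD6 (0.149) and the lysosomal enzyme HGSNAT (0.151). ZEB2 lay nearest to IL10RB (0.101), CHMP3 (0.101) and CDC42EP3 (0.109). HGSNAT and IL10RB were called as risen in ΔMBII, at 0.62 and 0.50 in the authors' deposited table, whereas ETS1 at 0.53 and ZEB2 at 0.47 were not. All but C1S and IL10RB had a MYC binding site in the authors' assignment. The distances describe shared folds over comparisons that share the WT libraries.

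**Figure D3:**
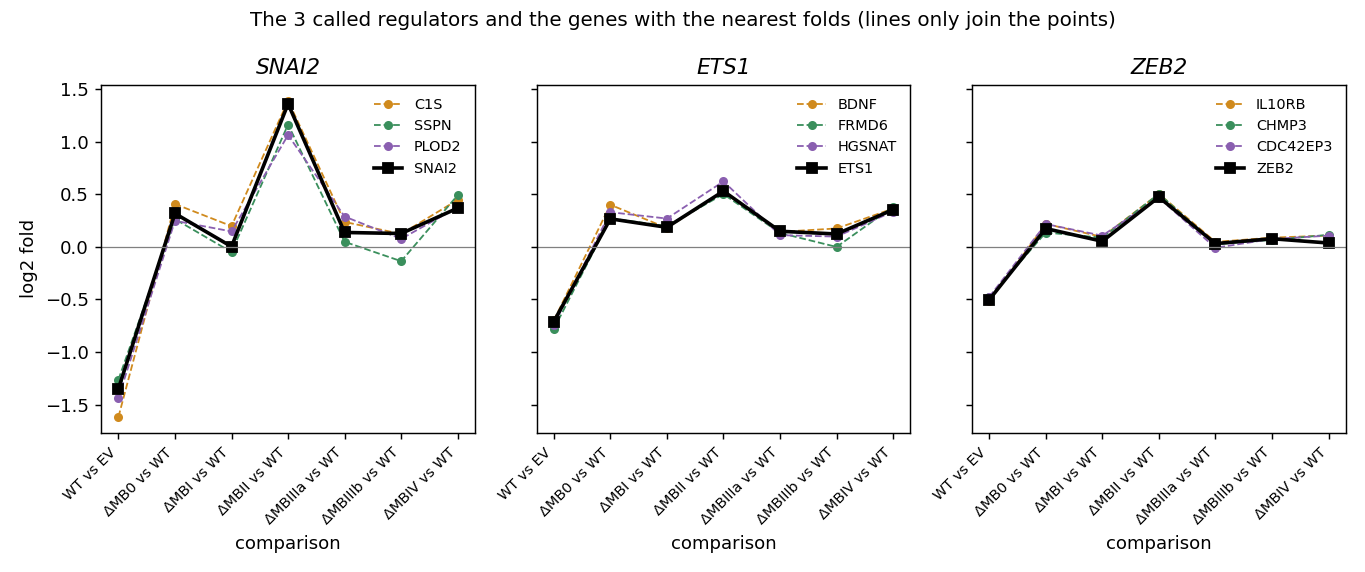
Log2 folds in the 7 comparisons (horizontal axis) for SNAI2, ETS1 and ZEB2 (black squares) and the 3 genes nearest to each (coloured circles), from the authors' deposited table, with lines that only join the points. SNAI2 runs from -1.35 in WT against EV to 1.36 in ΔMBII, while ETS1 and ZEB2 stay between -0.71 and 0.53.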

How the data were processed

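RNA sequencing of 32 TET21 libraries in 8 groups of 4, taken from the labels' titles, was analysed through 2 tables of the authors' own comparisons. Per the file headers, the authors fitted read counts with a Bayesian model and deposited a log2 posterior fold change and a PPDE per gene, with no value for genes whose read counts were 0. The build GRCh37 and the programs DESeq, STAR (2.5.2a), R (3.3.1) and edgeR (3.16.5) are named, without their roles, in the submitters' processing notes. The program behind the posterior values, the scaling of libraries and the rule that gave genes a MYC binding site are not given in the sources used here.

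Members were matched by symbol. A gene counted as tested in a comparison where both values were given. Calls, shares, medians and distances were computed in Python 3.11.15 with pandas 2.3.3 and numpy 2.4.6, and the counting was tested on simulated data. The members and the 8 lists were chosen with earlier results of these data known. Named were all members, MYC, up to 4 called genes per list and comparison with the highest PPDE, and the 3 genes nearest to each called member. Overlapping genes came from GENCODE 29 on GRCh38, without coordinates.

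Alternatives were a PPDE of 0.90 or 0.99, a minimum absolute log2 fold of 1, the separate fit of bound genes, and folds centred on the median tested gene. Gene set tests were not run. Some list genes that the naming rule picked are not reported here.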

Additional observations from a re-analysis of the deposited data

How the results depend on the processing

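No paired analysis was possible because the files analysed here hold no values per library, so the planned replicate block and the fits without each replicate were not run, and depth is unknown. With an absolute log2 fold of at least 1 also required, 1 member, SNAI2, was called in WT against EV in place of 3. The separate fit of bound genes called 1 member, ETS1, in ΔMBIV in place of 0. Counts of members called differed from the main ones by no more than 1.5 times under the remaining alternatives, and ZEB1 in WT against EV passed in the separate fit at -0.56.

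Centring moved all folds of a comparison by at most 0.07 and ended no call. Of 70 member values, 2 changed sign on centring, PRRX1 (0.00577) and VIM (0.0399) in ΔMBIV. In the separate fit 6 did, PRRX1 in ΔMBIIIb (-0.0224) and ΔMBIV (0.0287), SNAI1 in ΔMBI (0.0116), ZEB2 in ΔMBIIIb (-0.00739), VIM in ΔMBIV (0.0672) and RUNX1 in ΔMBIIIa (0.00168). None of these was called, and none exceeded 0.0927 in size in either fit.

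The counts over the 8 lists were given the same alternatives after the data had been seen. With a log2 fold of at least 1, 19 list genes were called in WT against EV in place of 31, 0 in ΔMB0 in place of 3, 0 in ΔMBI in place of 1, and 2 in ΔMBIV in place of 6, of which effectors were 1 in place of 4. At a PPDE of 0.99 ΔMBIV had 3 list genes and 2 effectors. The separate fit, which holds fewer list genes, called 3 in ΔMB0 (2 risen), 0 in ΔMBI, 8 in ΔMBII in place of 4, 1 in ΔMBIIIb in place of 0 and 3 in ΔMBIV, with 9 effectors in WT against EV in place of 15 and 2 in ΔMBIV. The separate fit's shares over all its genes in ΔMB0, ΔMBI, ΔMBII and ΔMBIIIb were not computed. The cause of the changes in PPDE between the fits was not tested.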
